A study of Mus musculus with 10 samples.

Results

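The Schlafen family was followed through 7 mouse genes, Slfn1, Slfn2, Slfn3, Slfn4, Slfn5, Slfn8 and Slfn9, which were chosen by name and found by their Ensembl identifiers in the GENCODE mouse annotation. All 7 were among the 17737 genes listed, and all 7 were among the 13798 genes that passed the filter on low counts. The tumors were grown from B16-F10, a mouse melanoma line, injected under the skin of the flank of C57BL/6 mice and taken on day 11. D69A tumors (5, numbered 1 to 5) came from cells overexpressing an IL-18 with alanine in place of aspartate at position 69. WT tumors (5, numbered 2 to 6) came from cells overexpressing wild-type IL-18. Every tumor therefore carried an IL-18 transgene, and no tumor without one was analysed here. The labels do not give the age of the mice, the promoter of the transgene, if each line implanted was a single clone, or whether each tumor came from its own mouse. The p-values below therefore rest on the spread between samples, part of which may be technical. In D69A tumors 5 of the 7 genes were lower by more than 5-fold, Slfn9 was 1.57-fold lower, and Slfn3 did not pass the test.

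Schlafen proteins share an N-terminal core that binds RNA and, in human SLFN11 and rat SLFN13, cuts transfer RNA. In the mouse the family is sorted by length into short members (Slfn1 and Slfn2), intermediate members (Slfn3 and Slfn4) and long members with a helicase-like C-terminal part (Slfn5, Slfn8 and Slfn9). The family was first described in developing thymocytes, and several of its genes are induced by interferons in lymphocytes and macrophages. IL-18 is a cytokine of the interleukin-1 family that makes natural killer (NK) cells and T cells release interferon-gamma.

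Total counts lay between 34400949 and 37578722 in D69A tumors and between 25904345 and 37556163 in WT tumors, where WT tumor 6 was lowest. Counts of Il18 itself hold the endogenous transcript and those reads of the introduced one that match the mouse gene, in a share not known here. Levels are given as CPM (counts per 1000000 counts of a library, library sizes scaled by TMM). Il18 stood at 27.3 ± 2.41 CPM in D69A tumors and 29.6 ± 2.56 CPM in WT tumors (SD, n = 5 each). Il18 did not pass the test by edgeR (adjusted p = 0.266), with a log2 fold change of -0.12 and an SE of 0.08. Melanocyte markers were abundant in both groups, with 10 summed markers at 24800 to 31700 CPM in D69A tumors and 16800 to 20900 CPM in WT tumors. Skeletal muscle markers varied widely, from 15.5 to 712 CPM summed over 12 genes in D69A tumors and from 16.2 to 2070 CPM in WT tumors. The 15 pan-leukocyte genes had a geometric mean of 11.7 to 27.7 CPM in D69A tumors, highest in D69A tumor 1, and of 35.6 to 92.6 CPM in WT tumors, lowest in WT tumor 2. In bulk tumors fewer leukocytes and less transcript per leukocyte cannot be told apart.

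All 7 genes lie in one cluster on chromosome 11, within 263.8 kb (82951349 to 83215154 in mm10). Along the chromosome the order was Slfn5, Slfn9, Slfn8, Slfn2, Slfn1, Slfn4 and Slfn3. Slfn8 (83002158 to 83020810) and Slfn9 (82978390 to 82991830) lie on the minus strand 10.3 kb apart, and the other 5 on the plus strand. Slfn4 (83175186 to 83190216) ends 1.11 kb before Slfn3 (83191330 to 83215154) starts. These genes resemble each other in sequence, and in the longest transcript of each member between 0.606% (Slfn1) and 18.5% (Slfn3) of all 50-base words also occurred in a transcript of another gene. Of 100-base words at most 6.85% were shared (Slfn5), with 3.62% for Slfn3, 0.285% for Slfn4 and 0% for Slfn1. For Slfn3 the gene sharing most 50-base words was Slfn4 (7.97%) and most 100-base words the pseudogene Gm11427 (3.4%), and for Slfn8 and Slfn9 it was the pseudogene Slfn10-ps (10.7% and 8.44% of 50-base words). No source used here gives the read length or the treatment of reads with several matches, so reads could be divided among these copies. Exons of the antisense gene Slfn5os lie opposite 8.84% of the exon sequence of Slfn5, and without strand in the counting, reads of the 2 genes there cannot be told apart.

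The stretches before the starts of 4 genes are shown, because Slfn8 and Slfn9, and Slfn4 and Slfn3, are neighbours whose changes differed in size. Each is the stretch of 250 bases before the gene's start (RefSeq, GRCm38.p6), 5′ to 3′ on the gene's strand, and capitals mark matches to the interferon-stimulated response element searched as TTTCNNTTTC on both strands.
Slfn8: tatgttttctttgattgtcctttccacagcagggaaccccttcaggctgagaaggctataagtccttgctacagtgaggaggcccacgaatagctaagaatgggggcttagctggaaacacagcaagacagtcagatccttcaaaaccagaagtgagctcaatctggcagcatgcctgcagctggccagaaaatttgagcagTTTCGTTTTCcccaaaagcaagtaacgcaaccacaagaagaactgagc
Slfn9: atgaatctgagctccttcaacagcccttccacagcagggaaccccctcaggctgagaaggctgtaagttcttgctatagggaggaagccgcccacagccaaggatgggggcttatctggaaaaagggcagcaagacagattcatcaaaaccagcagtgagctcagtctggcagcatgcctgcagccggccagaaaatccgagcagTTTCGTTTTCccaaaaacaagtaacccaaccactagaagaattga
Slfn4: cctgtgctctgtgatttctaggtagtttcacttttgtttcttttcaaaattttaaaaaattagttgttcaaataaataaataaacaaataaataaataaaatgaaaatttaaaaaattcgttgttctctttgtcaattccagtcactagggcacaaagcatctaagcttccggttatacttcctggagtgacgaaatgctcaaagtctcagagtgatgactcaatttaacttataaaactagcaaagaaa
Slfn3: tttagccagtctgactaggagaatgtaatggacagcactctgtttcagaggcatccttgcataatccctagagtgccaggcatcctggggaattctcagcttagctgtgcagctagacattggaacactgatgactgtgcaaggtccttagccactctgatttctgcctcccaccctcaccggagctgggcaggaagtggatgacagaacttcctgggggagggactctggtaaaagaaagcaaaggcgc
They lie at chr11:83020811-83021060 (Slfn8, minus strand), chr11:82991831-82992080 (Slfn9, minus strand), chr11:83174936-83175185 (Slfn4, plus strand) and chr11:83191080-83191329 (Slfn3, plus strand). The stretches of Slfn8 and Slfn9 were 80.3% identical in a global alignment (208 of 259 columns), against at most 53.1% for any other pair of members. Both hold the same match, from 48 to 39 bases before the start used for Slfn8 and from 45 to 36 bases before that of Slfn9. RefSeq gives Slfn8 another start as well, and the match lies 136 to 127 bases before that one. Slfn5 held a match on the other strand, 155 to 146 bases before its RefSeq start, at the edge of a run of adenines. That start lies inside the Slfn5 gene of the GENCODE annotation. Slfn1, Slfn2, Slfn3 and Slfn4 held no match in this window, which says only that these letters are not there. The motif was present in 2.98% of the 32851 promoter stretches of this length that were searched, a set that did not cover every chromosome. A match is a description of the sequence and not a measured binding site.

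In D69A tumors 6 of the 7 genes were lower than in WT tumors and 0 were higher. The test was the quasi-likelihood test of edgeR, with p-values adjusted by Benjamini and Hochberg's method over 13798 genes and a threshold of 0.05. Over all genes tested 24.7% passed the threshold as lower and 18.8% as higher. Of the 7 genes 5 were lower by at least 5-fold, against 4.88% of all genes. The median log2 fold change was -2.51 over the 7 genes and 0.0024 over all genes tested. The CPM ranges of the groups did not overlap for 6 of the 7, against 17.4% of all genes that were lower without overlap.

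**Figure D1:**
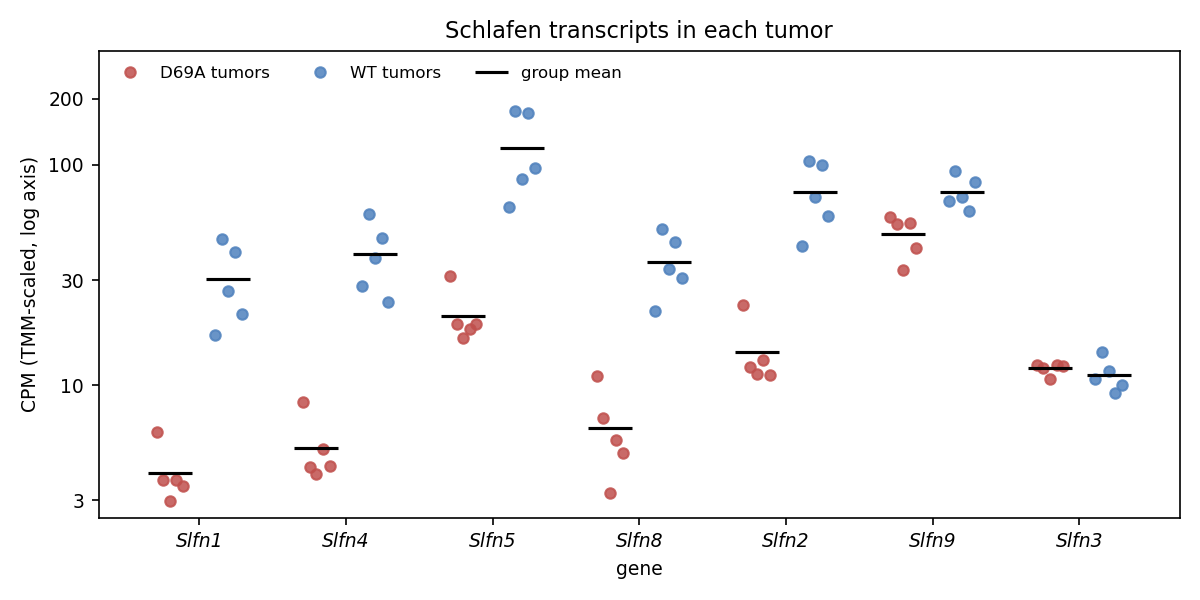
CPM of each Schlafen gene (log axis) in 5 D69A tumors (red, left) and 5 WT tumors (blue, right); each point is 1 tumor and black bars are group means. The groups stand far apart for Slfn1, Slfn4, Slfn5, Slfn8 and Slfn2, close together without overlap for Slfn9 (33.2 to 58.0 CPM in D69A tumors against 62.1 to 93.4 CPM in WT tumors), and overlap for Slfn3.

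Both short members fell. Slfn1, which slows growth when overexpressed in thymocytes, had 6.12, 3.73, 2.97, 3.70 and 3.47 CPM in D69A tumors 1 to 5, against 16.9, 46.1, 26.8, 40.4 and 21.0 CPM in WT tumors 2 to 6. The highest D69A tumor was well below the lowest WT tumor. Its log2 fold change was -2.92 (SE 0.31, 95% interval -3.59 to -2.24), a 7.55-fold lower level (adjusted p = 0.000382). Slfn2, which keeps T cells and monocytes in quiescence and whose loss in the elektra mouse leaves them short-lived, had 23.1, 12.1, 11.3, 13.0 and 11.2 CPM in D69A tumors 1 to 5. In WT tumors 2 to 6 Slfn2 had 43.0, 104.5, 71.5, 99.8 and 58.6 CPM. D69A tumor 1 stood above its group and still below every WT tumor. The log2 fold change of Slfn2 was -2.42 (SE 0.28, 95% interval -3.04 to -1.79), a 5.34-fold lower level (adjusted p = 0.000447).

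The intermediate members parted. Slfn4, a gene of myeloid cells that rises in macrophages on activation, had 8.42, 4.26, 3.93, 5.12 and 4.29 CPM in D69A tumors 1 to 5, against 28.1, 60.1, 38.0, 46.7 and 23.8 CPM in WT tumors 2 to 6. Its log2 fold change was -2.92 (SE 0.30, 95% interval -3.57 to -2.26), a 7.55-fold lower level (adjusted p = 0.000362), which equals that of Slfn1 to 2 decimals. Slfn3, its neighbour on the chromosome, had 12.3, 12.0, 10.6, 12.4 and 12.2 CPM in D69A tumors 1 to 5, against 10.7, 14.2, 11.6, 9.26 and 10.1 CPM in WT tumors 2 to 6. The Slfn3 ranges overlapped and the 5 D69A values lay inside the WT range. Slfn3 did not pass the threshold, with a log2 fold change of 0.10 (SE 0.12, 95% interval -0.16 to 0.36, adjusted p = 0.537). That interval leaves out a fall of the size seen in the other 6 genes, the smallest of which was -0.65 for Slfn9.

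The long members differed in size of change. Slfn5, whose human counterpart acts in the nucleus on interferon-stimulated genes, had 31.2, 19.0, 16.5, 17.9 and 19.0 CPM in D69A tumors 1 to 5, against 64.5, 176.4, 86.3, 171.7 and 97.3 CPM in WT tumors 2 to 6. WT tumors 3 and 5 stood apart as the highest. Its log2 fold change was -2.52 (SE 0.30, 95% interval -3.19 to -1.86), a 5.75-fold lower level (adjusted p = 0.000461). Slfn8 had 11.0, 7.13, 3.24, 5.65 and 4.94 CPM in D69A tumors 1 to 5, against 21.8, 51.2, 33.6, 44.8 and 30.6 CPM in WT tumors 2 to 6. Its D69A values spread by 3.39-fold, the widest of the 7 genes in that group. The log2 fold change of Slfn8 was -2.51 (SE 0.33, 95% interval -3.22 to -1.79), a 5.68-fold lower level (adjusted p = 0.000524). Slfn9, the close relative of Slfn8 with the similar start shown above, had 58.0, 53.8, 33.2, 54.7 and 42.1 CPM in D69A tumors 1 to 5, against 68.5, 93.4, 71.2, 62.1 and 83.6 CPM in WT tumors 2 to 6. The Slfn9 groups did not overlap, but D69A tumor 1 and WT tumor 5 were only 4.14 CPM apart. Its log2 fold change was -0.65 (SE 0.16, 95% interval -0.997 to -0.297), a 1.57-fold lower level (adjusted p = 0.00778).

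Slfn9 averaged 48.4 ± 10.4 CPM in D69A tumors and 75.8 ± 12.6 CPM in WT tumors, and Slfn5 averaged 20.7 ± 5.97 CPM in D69A tumors and 119.2 ± 51.5 CPM in WT tumors (SD, n = 5 each). Slfn3 and Slfn9 varied less between tumors of a group than the others, with coefficients of variation of 6.13% (Slfn3) and 21.5% (Slfn9) in D69A tumors and of 16.9% (Slfn3) and 16.6% (Slfn9) in WT tumors, whereas Slfn1, Slfn2, Slfn4, Slfn5 and Slfn8 had 28.8% to 45.9% in D69A tumors and 32.1% to 43.2% in WT tumors.

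The order of the tumors was shared in part. D69A tumor 1 was the highest D69A tumor for 6 of the 7 genes, with Slfn3 as the exception, and D69A tumor 3 was the lowest for 6, with Slfn2 as the exception (lowest in D69A tumor 5). WT tumor 3 was the highest WT tumor for all 7 genes, and WT tumor 2 the lowest for 4 (Slfn1, Slfn2, Slfn5 and Slfn8), whereas Slfn4 was lowest in WT tumor 6. WT tumor 5 was second highest for Slfn1, Slfn2, Slfn4, Slfn5 and Slfn8 and the lowest WT tumor for Slfn3 and Slfn9. It had the highest geometric mean of the 15 pan-leukocyte genes (92.6 CPM, against 76.5 CPM in WT tumor 3). That lead rests largely on Evi2b, at 6.48 CPM in WT tumor 5 and 0.465 CPM in WT tumor 3. Of the other genes Lcp1 was higher in WT tumor 3 (466.0 against 429.5 CPM) and Itgb2 in WT tumor 5 (164.8 against 156.8 CPM). Which of these tumors holds more leukocyte transcript is therefore not settled.

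**Figure D2:**
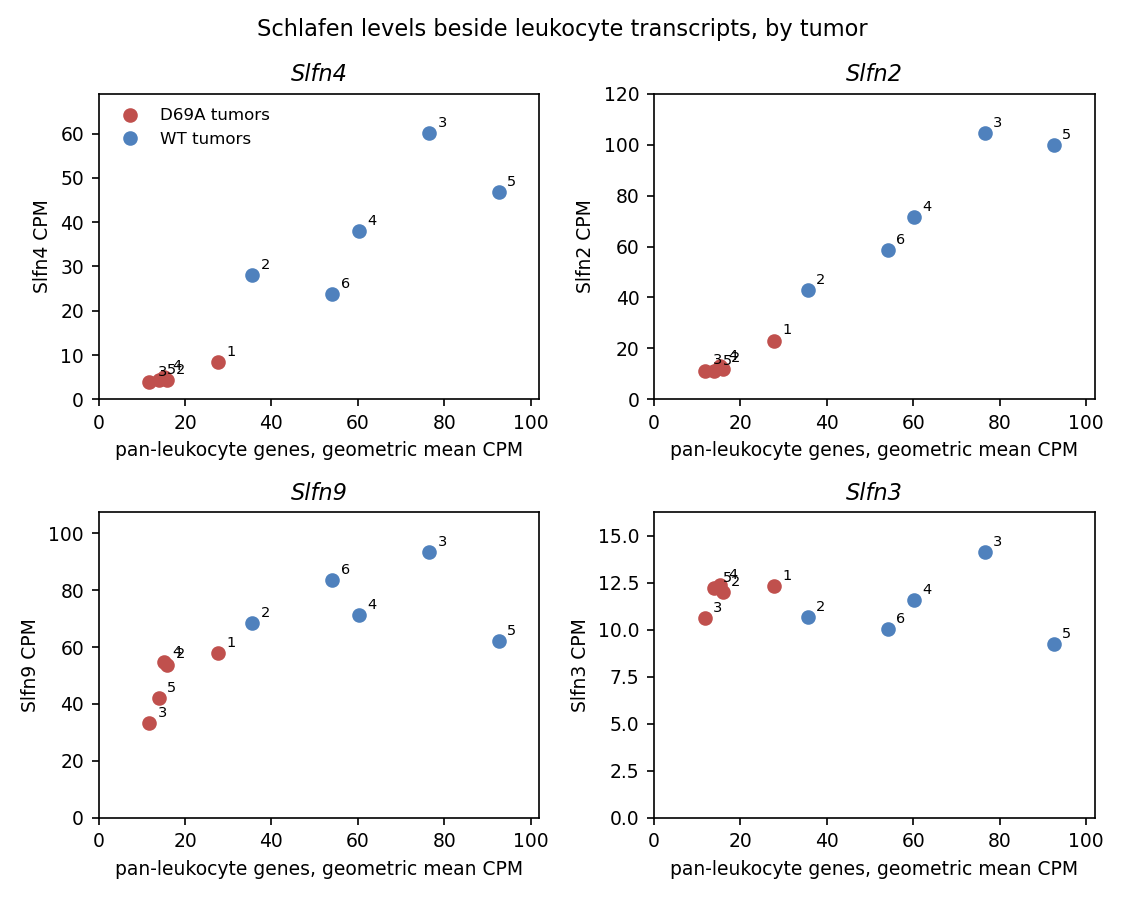
CPM of Slfn4, Slfn2, Slfn9 and Slfn3 (vertical axes, from 0) against the geometric mean CPM of 15 pan-leukocyte genes (horizontal axes) in D69A tumors (red) and WT tumors (blue), each labelled with its number. Slfn4 and Slfn2 are higher in the WT tumors, which have more leukocyte transcript, but within WT tumors Slfn4 does not follow it throughout (WT tumor 6 is lowest, at 23.8 CPM). WT tumor 5 has the highest geometric mean (92.6 CPM) and the lowest WT values of Slfn9 (62.1 CPM) and Slfn3 (9.26 CPM). Its lead over WT tumor 3 on the horizontal axis rests largely on the gene Evi2b.

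Whether the decreases differed between members was tested on their ratio within each tumor, which needs no scaling between tumors. All 21 pairs were compared on log2(CPM + 0.5) by an exact permutation test, two-sided, that counts every way of dividing the 10 tumors into 5 and 5 and has 0.00794 as its smallest possible p. After adjustment over the 21 pairs 14 passed the threshold. They included all 10 pairs that set Slfn3 or Slfn9 against one of the other 5 genes, each at the smallest possible p of the exact permutation test (adjusted p = 0.0139), with shifts of 1.70 to 2.88 log2 units. This grouping was made after the values were seen. The 10 pairs share genes and tumors, so they are not separate results. The ratio of Slfn3 to Slfn4 was 1.17 ± 0.37 log2 units in D69A tumors and -1.71 ± 0.45 log2 units in WT tumors (SD, n = 5 each, ratios of CPM without length). The ratio of Slfn8 to Slfn9 was -2.90 ± 0.34 log2 units in D69A tumors and -1.09 ± 0.46 log2 units in WT tumors (SD, n = 5 each). Slfn3 and Slfn9 also differed from each other, by 0.76 log2 units (exact permutation p = 0.00794, adjusted p = 0.0139). Among the other 5 genes 3 of 10 pairs passed, with shifts of at most 0.42 log2 units. These were Slfn1 against Slfn2 (-0.35), Slfn1 against Slfn5 (-0.29) and Slfn2 against Slfn4 (0.42), and all 3 calls were lost with a pseudocount of 2 CPM. The call for Slfn1 against Slfn5 was also lost without D69A tumor 3 or without D69A tumor 5.

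Per length the makeup of the family differed. Summed over the 7 genes the level was 28.4 ± 7.15 CPM per kb of exon in D69A tumors and 115 ± 37.6 CPM per kb in WT tumors (SD, n = 5 each). By mean Slfn2 was first in both groups, at 8.48 ± 3.05 CPM per kb in D69A tumors and 45.4 ± 15.9 CPM per kb in WT tumors. In D69A tumors Slfn9 (8.11 ± 1.74 CPM per kb) came next and overlapped with Slfn2. Slfn2 was above Slfn9 in 2 of the 5 D69A tumors, and without D69A tumor 1 the means were 7.14 CPM per kb for Slfn2 and 7.70 CPM per kb for Slfn9. Below them came Slfn3 (3.49 ± 0.21), whose range lay apart from that of Slfn9, and Slfn5 (3.28 ± 0.94), Slfn1 (2.15 ± 0.66), Slfn8 (1.56 ± 0.72) and Slfn4 (1.31 ± 0.47 CPM per kb), each overlapping with its neighbour in this order. In WT tumors the order after Slfn2 was Slfn5 (18.8 ± 8.13), Slfn1 (16.2 ± 6.73), Slfn9 (12.7 ± 2.11), Slfn4 (9.92 ± 3.69), Slfn8 (8.90 ± 2.86) and Slfn3 (3.27 ± 0.55 CPM per kb). There neighbours overlapped except Slfn8 and Slfn3. Within tumors Slfn5 was above Slfn1 and Slfn1 above Slfn8 in all 5 D69A tumors. Slfn3 was above Slfn5 and Slfn8 above Slfn4 in 4 of them. Slfn2 was above Slfn5 in all 5 WT tumors. In 4 WT tumors Slfn5 was above Slfn1, Slfn9 above Slfn4 and Slfn4 above Slfn8, and in 3 Slfn1 was above Slfn9. Slfn9 made up 28.8 ± 3.86% of the summed level in D69A tumors and 11.9 ± 3.69% in WT tumors, and Slfn3 12.8 ± 2.29% and 3.04 ± 0.92% (SD, n = 5 each).

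**Figure D3:**
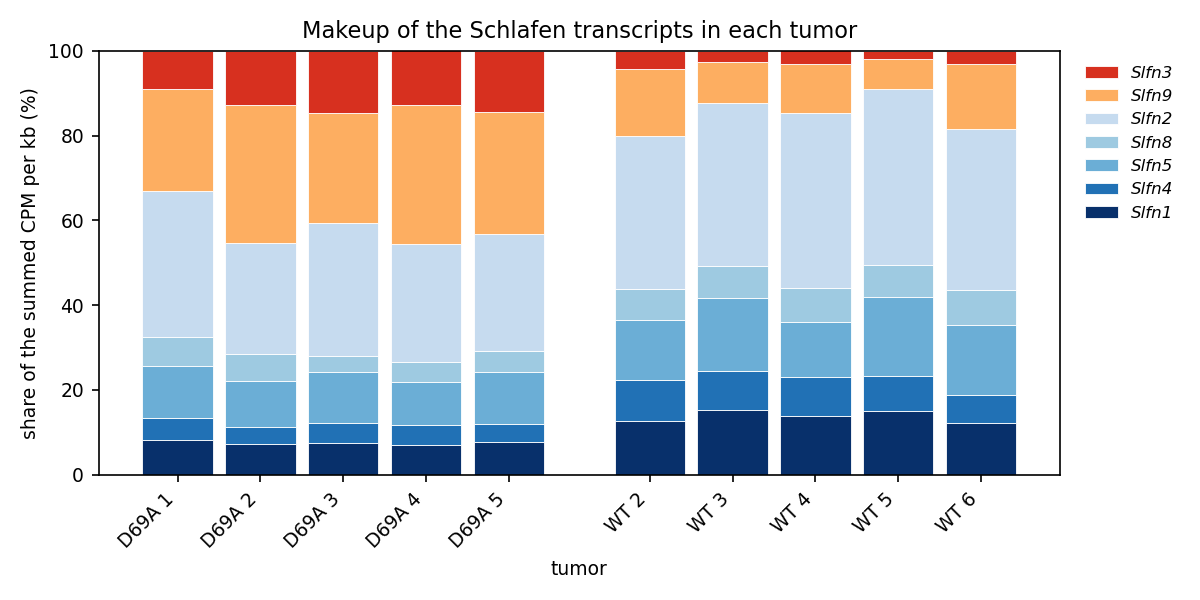
Share of each gene in the summed CPM per kb of the 7 Schlafen genes (vertical axis, percent), with 1 bar for each D69A tumor (left) and each WT tumor (right). Slfn3 and Slfn9 (red and orange) take more of every D69A bar than of any WT bar.

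Since leukocyte transcripts were lower in D69A tumors, the same test was repeated with library sizes set so that the geometric mean of the 15 pan-leukocyte genes was equal in all tumors. On this scale 3 of the 7 genes were lower in D69A tumors, against 2.25% of all genes, and 2 were higher, against 83.9% of all genes. Slfn4 (log2 fold change -1.02, SE 0.29, adjusted p = 0.00121) and Slfn1 (-0.97, SE 0.28, adjusted p = 0.00174) were lower per unit of leukocyte transcript. Slfn8 was lower by a narrow margin (-0.64, SE 0.28, adjusted p = 0.0327), and its call was lost in 9 of 15 alternatives, among them those without D69A tumor 3, 4 or 5 or WT tumor 3, 4 or 6, with adjusted p of 0.0559 to 0.0814. Slfn5 (-0.55, 95% interval -1.17 to 0.06) and Slfn2 (-0.49, 95% interval -1.07 to 0.09) were not called. Their adjusted p from edgeR was 0.0886 for Slfn5 and 0.11 for Slfn2. The scaled values of these genes still did not overlap between groups. Slfn5 had 35.3 to 44.1 CPM in D69A tumors and 44.8 to 72.1 CPM in WT tumors. Slfn2 had 23.7 to 30.2 and 33.7 to 42.7 CPM, and Slfn8 8.72 to 14.0 and 15.2 to 20.9 CPM. The share of all genes without overlap on this scale was not computed. Among the 15 genes Evi2b was not called by total counts (log2 fold change -1.56, adjusted p = 0.145 by edgeR). Its level ran from 0.36 to 4.08 CPM in D69A tumors and from 0.465 to 13.3 CPM in WT tumors, which moves the scaling of single tumors. A geometric mean without Evi2b was not computed. When the 15 genes were summed in place of their geometric mean, Slfn5 passed (-0.60, SE 0.28, adjusted p = 0.0464). Slfn3 (1.98) and Slfn9 (1.19) were the 2 higher genes, as were most genes of the transcriptome on this scale, whose median log2 fold change was 1.89.

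The count on this scale depended on the leukocyte genes chosen. With 17 T cell markers as the yardstick 0 members were lower, against 0.246% of all genes. With 24 type I interferon response genes 1 member was lower (Slfn4), against 0.804% of all genes. With 16 macrophage and monocyte markers 5 members were lower, against 6.74% of all genes, so the share over all genes moved in the same order. With the same pan-leukocyte genes summed, 4 were lower, against 2.54% of all genes. These yardstick lists themselves fell by different amounts, with median log2 fold changes of -2.65 for T cell markers, -2.33 for interferon response genes and -1.62 for macrophage and monocyte markers. The part of each cell type in the Schlafen differences was not tested.

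**Figure D4:**
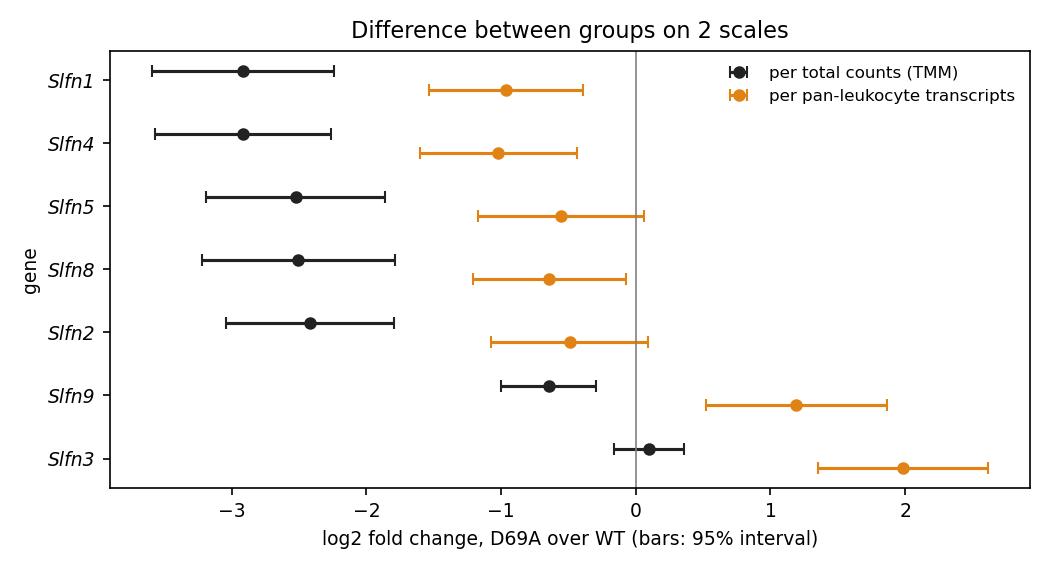
Log2 fold change of D69A over WT (horizontal axis) for each gene with its 95% interval, by total counts (black) and with pan-leukocyte genes set equal (orange). By total counts all genes but Slfn3 lie below 0, and on the leukocyte scale the intervals of Slfn5 and Slfn2 reach across 0 while Slfn9 and Slfn3 lie above it.

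Genes that act in the interferon pathway upstream of the Schlafen genes were mostly lower. Of 12 tested genes for interferons, their receptors, kinases and transcription factors 9 were lower and 1, the receptor chain gene Ifnar1, was higher in D69A tumors, with a median log2 fold change of -0.83. Stat2 and Irf9, subunits of the complex that binds the response element, had log2 fold changes of -1.97 (SE 0.19) and -1.39 (SE 0.17). Irf1, a transcription factor of the interferon-gamma response, stood at -1.73 (SE 0.20). Of 18 interferon-induced genes that act on RNA or nucleotides, on translation or in RNA sensing, all 18 were lower (24.7% over all genes). Their median was -1.79. Among them was Ifit1, which binds foreign RNA and was 5.92-fold lower. Ifit3, of the same family, was 7.80-fold lower and has a near-identical copy that could share its reads. Oasl1, a relative of the oligoadenylate synthetases, was also among them (5.08-fold lower). All 24 tested type I interferon response genes were lower (24.7% over all genes), with a median of -2.33. These lists overlap, since 3 genes of the upstream list and 6 of the 18 are also among the 24, so their counts are not separate results. These lists were chosen with earlier results of these tumors known.

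Other genes of lymphocyte quiescence, the process in which Slfn2 acts, were lower in part. Of 16 tested 9 were lower (24.7% over all genes) and 3 higher (18.8% over all genes), and the median over the 16 was -0.64 on the log2 scale. The survival receptor gene Il7r was 3.03-fold lower and the transcription factor gene Klf2 2.68-fold lower. The 3 higher genes were Tob1, Tsc1 and Tsc2, at 0.34, 0.29 and 0.16 on the log2 scale, and were named after their values were seen. All 17 tested T cell markers and all 15 NK cell markers were lower too, as were 13 of 16 macrophage and monocyte markers, 10 of 11 dendritic cell markers, 3 of 4 tested neutrophil markers and 3 of 4 tested B cell markers. Of 12 endothelial markers 11 were lower, and of 10 fibroblast markers all 10. Of 10 melanocyte markers 7 were higher and 0 lower. Summed T cell markers ran from 22.6 to 44.0 CPM in D69A tumors and from 67.0 to 160 CPM in WT tumors, and summed macrophage and monocyte markers from 598 to 910 CPM in D69A tumors and from 986 to 2500 CPM in WT tumors.

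Position in the genome was compared by listing every gene within 500 kb of the cluster. Of 18 tested neighbours 9 were lower (24.7% over all genes) and 1 higher (18.8% over all genes) in D69A tumors. Their median log2 fold change was -1.12. Ccl5 and Ccl3, chemokine genes of activated leukocytes and the neighbours with the smallest p, were 5.33-fold and 4.91-fold lower and lie 310.6 kb and 432.7 kb beyond Slfn3. All 5 tested chemokine genes in the window were lower, and the other 13 neighbours had 4 lower (24.7% over all genes), 1 higher and a median of -0.038, a split made after the values were seen. By side, 1 of 7 neighbours before Slfn5 was lower, with a median of -0.038, and 8 of 11 beyond Slfn3, with a median of -1.70, a side that holds the 5 chemokine genes. The single higher neighbour was the DNA ligase gene Lig3 (log2 fold change 0.35). Unc45b, a muscle chaperone gene 7.95 kb before Slfn5, was low in counts (0.69 ± 0.69 CPM in D69A tumors and 2.70 ± 1.96 CPM in WT tumors, SD, n = 5 each). Unc45b passed the test by edgeR (adjusted p = 0.0358), at -1.97 on the log2 scale with an SE of 0.68. The call was lost without D69A tumor 2, 3, 4 or 5 and without WT tumor 3 or 4, where the adjusted p reached 0.0769 to 0.0897. It was kept without the 3 tumors highest in muscle markers (-1.80, SE 0.47, adjusted p = 0.0214). Slfn14, a Schlafen gene 59.96 kb beyond Slfn3, had 4 counts in WT tumor 5 and 0 in each other tumor, and Slfnl1 on chromosome 4 had at most 5 counts in any tumor. Both were too low to be tested.

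**Figure D5:**
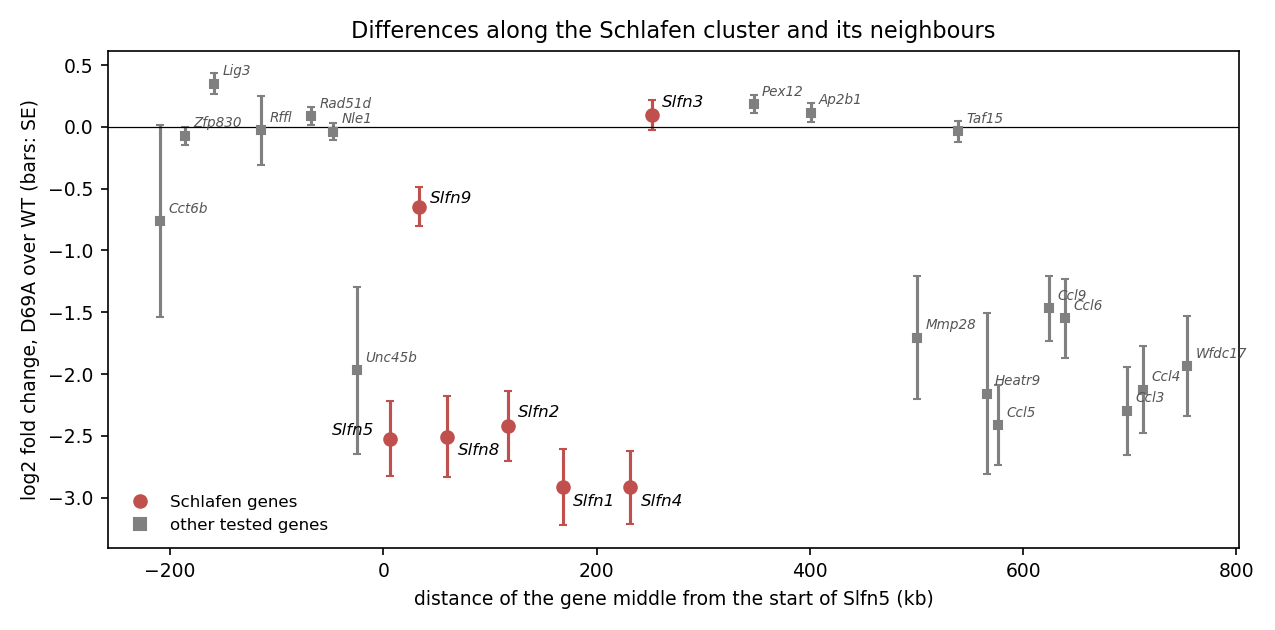
Log2 fold change of D69A over WT (vertical axis, bars are SE) for the 7 Schlafen genes (red circles) and 18 tested neighbours (grey squares) by distance from the start of Slfn5 in kb. Slfn9 and Slfn3 stand above the other Schlafen genes although they lie between and beside them, and several neighbours at either end lie near 0.

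The genes whose profiles over the 10 tumors were most like each member were found by the root mean square difference of log2(CPM + 0.5), each profile centred on its own mean, among 12208 candidates. Icam1, an adhesion receptor gene, was nearest to Slfn2 (0.106 log2 units, against a median of 1.28 over all candidates). Ccl5 was nearest to Slfn5 (0.113), Psmb9, an immunoproteasome subunit gene, to Slfn8 (0.122), Phf11b to Slfn1 (0.141) and Ms4a4c to Slfn4 (0.182). Slfn9 was nearest to Lpar6, a receptor gene for lysophosphatidic acid (0.115, against a median of 0.483). Slfn3 was nearest to Lipt2, a gene of lipoate attachment (0.0875, against a median of 0.234), and so lay among the many genes that changed little. Among the members themselves Slfn1 and Slfn4 (0.16) and Slfn2 and Slfn5 (0.161) were closest, and Slfn3 and Slfn4, the pair of immediate neighbours, were farthest apart (1.49).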

How the data were processed

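The deposited table gave the 10 tumors' read counts per Ensembl gene as whole numbers with no scaling. Per the submitters' processing notes, RSEM, Bowtie, HISAT and fastp were among the tools, with mm10 as the build. No source used here gives their roles or versions, the annotation, or how reads and strands were counted. If RSEM made the counts, they can be rounded estimates in which reads of similar genes are divided.

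Every column was matched to a tumor by name. Symbols and coordinates came from the GENCODE mouse annotation of the same build (17670 of 17737 identifiers matched), and promoter sequences from RefSeq. Low genes were removed with edgeR's filterByExpr, libraries scaled by TMM, and D69A set against WT with the quasi-likelihood test of edgeR 4.0.16 in R 4.3.3, adjusted by Benjamini and Hochberg's method. SEs were derived from the F statistic. A total of 3 counts came to 0.0798 to 0.116 CPM. This limit covers only the error of counting. Within a group every pair of tumors differed beyond sampling noise (smallest chi-square per degree of freedom 13.9).

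The members and lists were chosen with earlier results of these data known. Named are all members, up to 4 genes of each list and 2 neighbours with the smallest p, and the genes nearest in profile. Ifnar1, Lig3, Unc45b, the chemokine split and the grouping of Slfn3 and Slfn9 against the other members were chosen after values were seen. In simulated counts for this comparison (13693 genes, 200 changed) the test called 64% of genes with a 1.5-fold change, 70% of those with a 2-fold and 92% of those with a 4-fold change. Unchanged genes made up 3.33% of its calls. Far fewer genes were changed in the simulation than were called in the data (24.7% lower and 18.8% higher). The simulated shares may therefore differ from those in the data.

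Alternatives were DESeq2 1.42.0, limma-voom (limma 3.58.1), 3 other scalings, 2 other filters, the replicate number as a block in the 8 tumors with shared numbers, the same 8 tumors without it, each tumor left out, and the 3 tumors highest in muscle markers left out.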

Additional observations from a re-analysis of the deposited data

Results flagged for a closer look

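Values were examined for tumors far from the others, defined by a distance to the next value that exceeds 0.71 of the range over the 5 tumors. Of 28 groups of values (CPM and leukocyte-scaled CPM of 7 genes in 2 groups), 5 met this (17.9%). Chance gives about 1 in 20 for independent values, and values of a tumor vary together across these genes. D69A tumor 1 was far above the rest of its group in Slfn1 (6.12 CPM, next 3.73), Slfn2 (23.1 CPM, next 13.0), Slfn4 (8.42 CPM, next 5.12) and Slfn5 (31.2 CPM, next 19.0). The same tumor had the highest pan-leukocyte level of its group (27.7 CPM), and with pan-leukocyte genes set equal it was not singled out for any member. Slfn3 was lowest in D69A tumor 3 (10.6 CPM, against 12.0 to 12.4 CPM in the other D69A tumors).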

How the results depend on the processing

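By total counts all 140 alternative values of the 7 genes (20 alternatives each) kept their direction and their side of the threshold, with 6 members lower and 0 higher each time. Log2 fold changes lay between -3.28 and -2.70 for Slfn4, between -0.71 and -0.50 for Slfn9 (adjusted p up to 0.0379) and between 0.053 and 0.24 for Slfn3. Of 460 alternative values of 23 other genes 454 kept theirs, and the other 6 were those of Unc45b. Relative to pan-leukocyte genes 88 of 105 values kept direction and side. There the count of lower members was 0 with T cell markers, 5 with macrophage and monocyte markers and 1 with type I interferon response genes as the yardstick (0.246%, 6.74% and 0.804% of all genes), 4 with summed pan-leukocyte counts (2.54% of all genes), and 2 to 3 with 1 tumor left out. With T cell markers Slfn2 (0.083) and Slfn5 (0.037) turned positive, neither past the threshold (adjusted p = 0.855 and 0.939); the cause was not tested. Of the 21 pairs 14 passed, against 11 with a pseudocount of 2 CPM and 13 to 15 with 1 tumor left out. By longest transcript the level of Slfn3 was 4.21 in D69A and 3.93 CPM per kb in WT tumors.

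The replicate numbers 2 to 5 occur in both groups, and the labels give them no shared mouse or day. Deviations of same-numbered tumors correlated at 0.177, -0.417, 0.203 and 0.167, and only numbers 2 and 4 were highest with their own number. Since number 3 ran the other way, the numbers were not taken as pairs. With the number as a block in those 8 tumors 6 members were lower and 0 higher, and 2 lower and 2 higher on the leukocyte scale, where Slfn8 did not pass (adjusted p = 0.0818). The lowest D69A level, 99 counts of Slfn1, lies far above the floor of 3 counts.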

Other observations

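Promoter stretches of 250 bases, from the same set that did not cover every chromosome, were matched to 10754 tested genes by symbol. Of the 370 genes with the response element letters 44.1% were lower in D69A tumors, and of the 10384 without them 23.3%. For the gamma-activated sequence, searched as TTCNNNGAA, the shares were 31.1% of 792 genes with it and 23.5% of those without, and no Schlafen gene held it in this window. For the PU.1 core, searched as GAGGAA on both strands, they were 29.4% of 2835 genes with it and 22.1% of those without, and Slfn9 alone among the 7 members held it, 170 to 165 bases before the start. These shares are descriptions of the window and were not tested.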
